A study of Mus musculus with 12 samples.

Results

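The major satellite repeat genes are 10 annotated mouse genes, *Gm10715*, *Gm10717*, *Gm10718*, *Gm10719*, *Gm10720*, *Gm10721*, *Gm10722*, *Gm11168*, *Gm10800* and *Gm10801*. They were selected by the gene type that the deposited tables give them, among 3439 listed genes. The tables come from a comparison of group 2 innate lymphoid cells (ILC2s, tissue-resident lymphocytes that make type 2 cytokines) that carried or lacked the red fluorescent protein tdTomato. Both populations were sorted from lungs of *Tigit* fm mice, genotype TIGIT-Cre-ERT2:Rosa26-LSL-tdTomato, after papain, a protease allergen given through the nose, and tamoxifen. In these mice tamoxifen lets a Cre recombinase made from the *Tigit* locus switch on tdTomato, so tdTomato+ ILC2s are cells that had expressed the checkpoint receptor TIGIT while tamoxifen was present, and tdTomato- ILC2s are not marked. The labels list 4 RNA-seq libraries of each population, all with the same genotype and both treatments, and no untreated library. Each library was made in bulk from a fixed number of sorted cells, so that fewer cells of a type within the sort and less RNA per cell cannot be told apart.

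Major satellite DNA is the tandem repeat of mouse pericentromeres, the blocks of heterochromatin beside each centromere. It is packed by histone H3 lysine 9 methylation and HP1 proteins, and its transcripts are mostly described as non-coding RNA. Most of these arrays are not assembled in reference genomes, so genes annotated within them are short assembled pieces of a far larger sequence. In the gene annotation used here (GENCODE M21 on GRCm38), all 10 genes are nevertheless protein-coding models.

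To show what these genes are made of, the repeat unit was read from the genome. Over the 37.4 kb that hold the chromosome 9 genes, the sequence was compared with itself at every shift from 40 to 300 bases. At a shift of 234 bases, 71.2% of the bases were identical, against a median of 31.3% over the other shifts. Smaller peaks stood at 58 bases (56.3%), 176 bases (51.7%) and between them at 118 bases, the pattern of a unit built from 4 diverged subunits. In the 10 kb beside the cluster, 22.5% of the bases were identical at a shift of 234 bases.

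**Figure D1:**
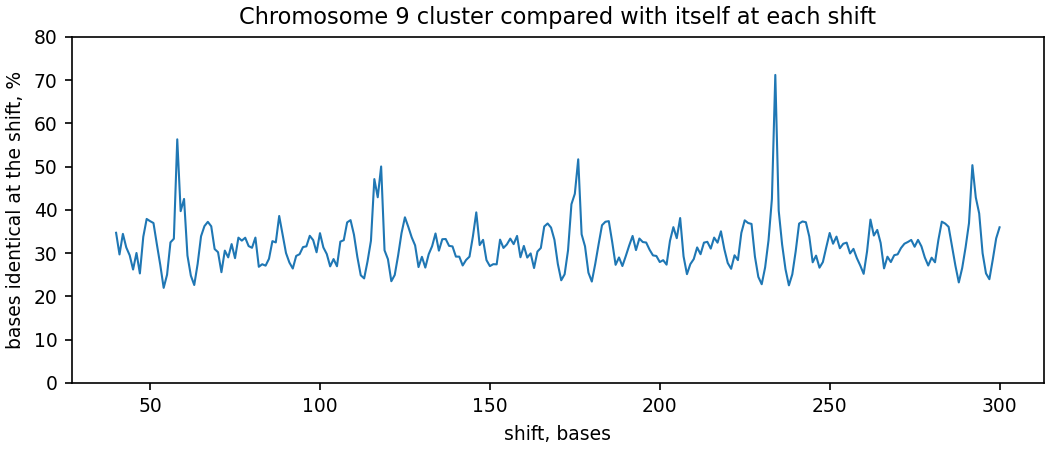
Share of bases of the chromosome 9 cluster (y axis, percent) that equal the base found a given number of bases further on (x axis, shift in bases). The highest peak is at 234 bases (71.2%), with lower peaks at 58, 118 and 176 bases.

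One copy of the unit from each of 7 genes is given here to show how close the best-kept repeat copies of these genes are. Each is the 234-base stretch of the gene's span that was nearest to the most frequent bases of the cluster's most regular 10 units, written 5′ to 3′ on the strand named. Capitals mark bases that differ from the copy of *Gm10717*, the longest gene. Most of these copies are only partly exonic, with from 85 (*Gm10722*) to 234 (*Gm10717*) of their 234 bases in exons.
Gm10717, chr9:3032076-3032309, plus strand: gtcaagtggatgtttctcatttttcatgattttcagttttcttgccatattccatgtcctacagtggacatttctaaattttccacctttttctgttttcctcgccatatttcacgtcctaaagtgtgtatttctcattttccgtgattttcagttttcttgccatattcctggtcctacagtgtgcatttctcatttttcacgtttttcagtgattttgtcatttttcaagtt
Gm10718, chr9:3024473-3024706, plus strand: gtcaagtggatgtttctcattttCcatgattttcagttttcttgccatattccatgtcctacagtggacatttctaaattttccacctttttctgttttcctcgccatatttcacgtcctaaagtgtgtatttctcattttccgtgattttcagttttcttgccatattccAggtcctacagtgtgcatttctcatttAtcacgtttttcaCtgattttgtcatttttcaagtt
Gm10722, chr9:3002052-3002285, plus strand: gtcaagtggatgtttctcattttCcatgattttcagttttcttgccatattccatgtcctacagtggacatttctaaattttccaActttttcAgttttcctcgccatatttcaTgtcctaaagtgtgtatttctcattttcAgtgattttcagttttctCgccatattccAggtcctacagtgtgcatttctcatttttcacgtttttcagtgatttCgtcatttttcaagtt
Gm10721, chr9:3014066-3014299, plus strand: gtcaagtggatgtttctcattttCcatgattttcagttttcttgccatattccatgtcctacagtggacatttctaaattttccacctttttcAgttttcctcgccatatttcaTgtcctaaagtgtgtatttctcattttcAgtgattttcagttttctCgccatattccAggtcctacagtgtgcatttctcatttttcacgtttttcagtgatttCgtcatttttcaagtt
Gm10720, chr9:3016932-3017165, plus strand: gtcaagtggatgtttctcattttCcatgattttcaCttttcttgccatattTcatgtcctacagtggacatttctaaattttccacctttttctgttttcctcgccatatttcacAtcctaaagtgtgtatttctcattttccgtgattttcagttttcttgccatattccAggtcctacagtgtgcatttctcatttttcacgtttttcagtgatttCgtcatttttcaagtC
Gm10801, chr2:98663805-98664038, plus strand: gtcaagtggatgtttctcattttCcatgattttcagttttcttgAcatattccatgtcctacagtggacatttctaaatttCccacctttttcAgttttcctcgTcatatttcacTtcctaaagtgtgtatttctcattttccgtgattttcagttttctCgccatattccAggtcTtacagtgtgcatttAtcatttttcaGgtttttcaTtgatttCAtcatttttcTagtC
Gm10800, chr2:98666592-98666825, minus strand: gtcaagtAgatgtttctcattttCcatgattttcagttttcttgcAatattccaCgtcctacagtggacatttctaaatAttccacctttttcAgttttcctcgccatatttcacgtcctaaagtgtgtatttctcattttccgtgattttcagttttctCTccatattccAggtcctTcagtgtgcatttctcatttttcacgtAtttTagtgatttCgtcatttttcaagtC
The *Gm10718* copy differed from that of *Gm10717* at 4 of 234 positions, and the *Gm10721* and *Gm10720* copies at 7 each. The *Gm10722* copy differed at 8 positions. The copies of the chromosome 2 genes were farther away, with 14 differences in *Gm10800* and 16 in *Gm10801*, all copies having been found without gaps. *Gm10719*, not shown, held the same 234 bases as *Gm10720*.

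Between the 8 chromosome 9 genes, the copies were 95.7% to 100% identical (median 97.0% over 28 pairs). Between a chromosome 9 and a chromosome 2 gene, the identity was 93.2% to 95.3% over 16 pairs. The lowest value belonged to the chromosome 2 genes themselves, with 92.3% between *Gm10800* and *Gm10801*. Of the 234 positions, 33 varied among the 10 copies and 17 among the 8 of chromosome 9, and at 0 positions did both chromosome 2 genes share a base that was absent from every chromosome 9 copy. Because each copy was chosen for its closeness to one unit, these identities are those of the best-kept copy of each gene.

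The 2 loci were built differently. The chromosome 9 genes lay side by side on the plus strand of GRCm38, between 3000922 and 3038316. The known sequence of that chromosome begins at 3000001, and *Gm10722*, the first gene, starts 0.921 kb after it. *Gm10722* (chr9:3000922-3002330) is followed by *Gm11168* (chr9:3003346-3006948). Next are *Gm10721* (chr9:3013140-3014344), *Gm10720* (chr9:3015654-3017210) and *Gm10719* (chr9:3017408-3021593). *Gm10718* (chr9:3023547-3025218) comes before *Gm10717* (chr9:3025417-3033289), and *Gm10715* (chr9:3036877-3038316) ends the row. The spans aligned to the unit over 99.9% to 100% of their bases, exons and introns alike, at 87.6% (*Gm10720*) to 96.1% (*Gm10721*) identity.

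The chromosome 2 genes lay within 5.07 kb of each other, far from either end of a chromosome of 182 Mb. *Gm10801* (chr2:98662237-98664083) is on the plus strand and *Gm10800* (chr2:98666547-98667301) on the minus strand, with 2463 bases between them. *Gm10800* aligned to the unit over 99.7% of its span at 94.7% identity. Only 47.2% of the span of *Gm10801* aligned, at 94.2% identity, and the remainder was mostly intron. Its introns had 22.8% of their bases in 12-base words of the unit, while its exons had 81.5%. The exons of *Gm10800* had 93.6% and those of the chromosome 9 genes 83.4% to 94.0% of their bases in such words.

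**Figure D2:**
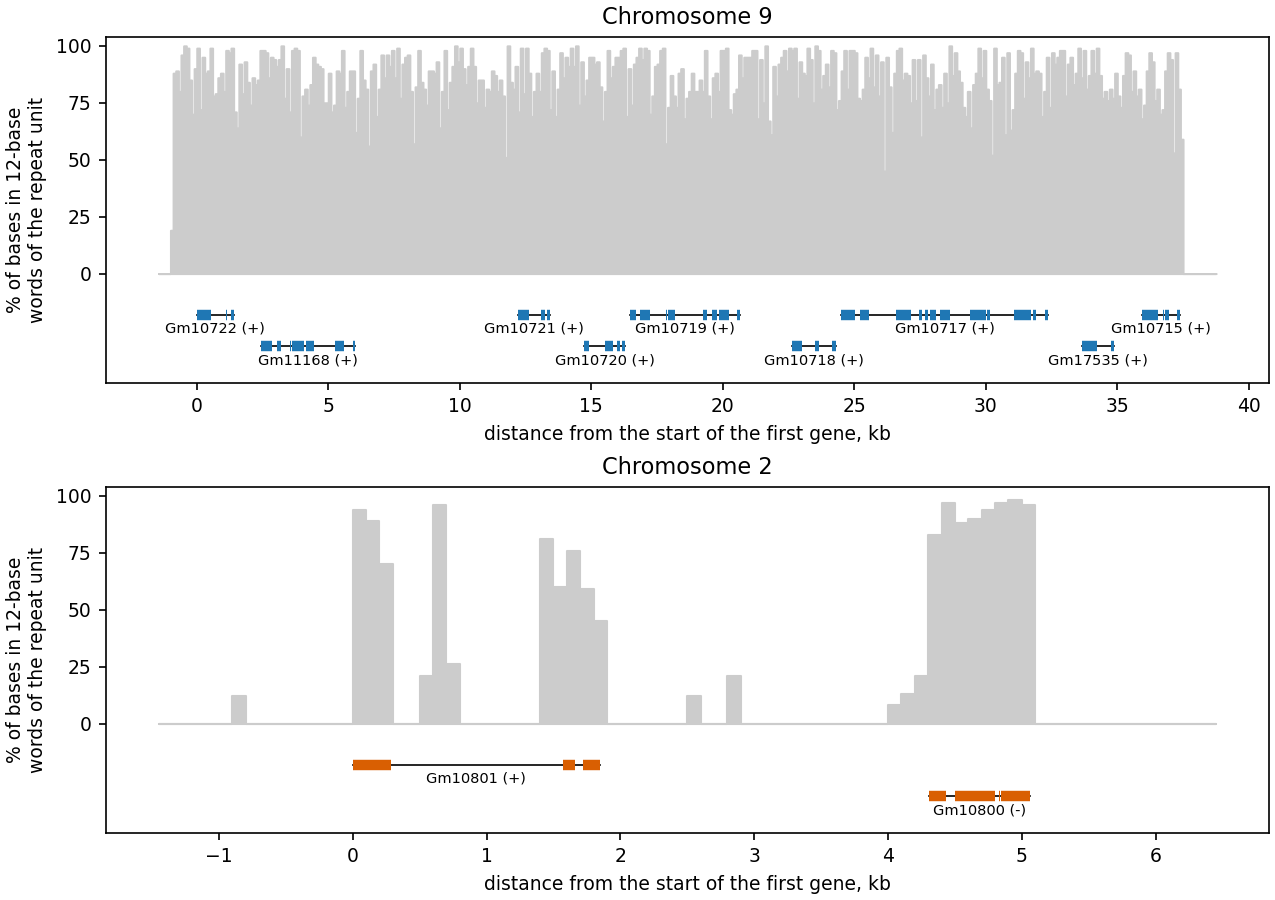
Share of bases in 12-base words of the repeat unit, in 100-base bins (grey, y axis, percent), along the chromosome 9 cluster and the chromosome 2 pair (x axis, distance in kb from the start of the first gene). Coloured boxes are exons, lines are introns and the sign is the gene's strand: the repeat fills the whole chromosome 9 cluster, while on chromosome 2 it forms separate blocks over the exons of *Gm10801* and over *Gm10800*.

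All 10 genes read the same strand of the unit. On chromosome 9 the words in exons matched the unit on the plus strand, which is the strand of the genes. *Gm10800*, which is on the minus strand, matched the reverse of the unit over the same 93.6% of its exonic bases, so its transcript has the same orientation. In *Gm10801*, 704 aligned bases had the orientation of the gene and 168 the reverse, but its exonic words all had that of the gene. The long non-coding RNA gene *Gm26870* lies on the opposite strand across the chromosome 9 cluster, overlaps the spans of all 8 genes there and was not listed in either table. Its exons share 0 exonic bases with *Gm10722*, *Gm10717* and *Gm10720*, and from 155 (*Gm10718*) to 299 bases (*Gm10715*) with the other 5. Whether strand was used in counting is not known, and over these shared bases alone reads of the overlapping genes cannot then be told apart by position.

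The gene models were unusual in their structure. All 24 annotated transcripts of the 10 genes had a length that is a multiple of 3 and no untranslated exon, so their lengths are coding lengths. Of 79 distinct introns, 28 (35.4%) were shorter than 30 bases and 21 were of exactly 4 bases, whereas 0.0173% of the transcript introns of the other listed genes were that short. The shortest, of 1 base, was in *Gm10800*. *Gm10717* had 9 transcripts and 3856 exonic bases, *Gm11168* had 4 transcripts and 1892 bases, *Gm10719* had 3 and 1800, and *Gm10715* had 2 and 935. The other 6 genes had 1 transcript each and between 504 (*Gm10801*) and 681 (*Gm10718*) exonic bases. The median exonic length of the other genes of the table of higher genes was 10776 bases. Their lengths include untranslated exons, so the 2 measures are not alike.

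All 10 satellite genes stood in the table of genes that were higher in tdTomato+ ILC2s. Of all listed genes, 15.5% stood in that table (533 of 3439). The type and the listing both entered the choice of these genes, so their direction is a description of how they were chosen and was not tested. The tables give no value of a single library. The level of each gene is therefore the authors' average over libraries, with both populations mixed in it, in CPM (read counts scaled to library size, on the log2 scale in the tables), with no spread, and whether neighbours in the order of levels differ beyond the spread between libraries is not known.

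*Gm10800*, on chromosome 2, had the highest level per gene, not scaled to length, of all 3439 listed genes, at a log2 CPM of 16.49, or 92259 CPM. *Gm10801*, its neighbour, was the second of all listed genes at 13.22 (9555 CPM). *Gm10718*, the highest of the chromosome 9 genes, was the third at 12.26 (4908 CPM). The next listed genes were of other kinds, namely *mt-Co1*, a mitochondrial subunit of cytochrome c oxidase (4489 CPM), *Actb*, cytoplasmic actin (4180 CPM), and *Eef1a1*, a translation elongation factor (3636 CPM). All 3 of those stood in the table of lower genes, so this order is one of the mixed average and may not hold in either population alone.

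Below them, *Gm10722* had a log2 CPM of 10.67 (1632 CPM, rank 14) and *Gm10717* one of 9.80 (890 CPM, rank 32). *Gm11168* followed at 8.85 (462 CPM, rank 105). *Gm10719* at 8.37 (331 CPM) and *Gm10721* at 8.35 (327 CPM) were almost level with each other. *Gm10715* was at 7.31 (159 CPM), and *Gm10720* was the lowest at 6.18 (72.7 CPM, rank 1786). That is above the smallest listed value, 5.00, so none of the 10 genes was near the limit of a log2 CPM of 5 that the tables keep to.

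The median of the 10 genes was a log2 CPM of 9.32, against 6.23 over all listed genes and 5.55 over the other genes of the table of higher genes. The genes nearest to that median were *Rpl8*, *Rpl7* and *Rps7*, which encode ribosomal proteins, at 647, 639 and 637 CPM. Of the 10 genes with the highest level in the table of higher genes, 7 were satellite genes, and the highest of all others in it had a log2 CPM of 9.52. Within the chromosome 9 cluster alone, the levels spanned 6.08 on the log2 scale.

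**Figure D3:**
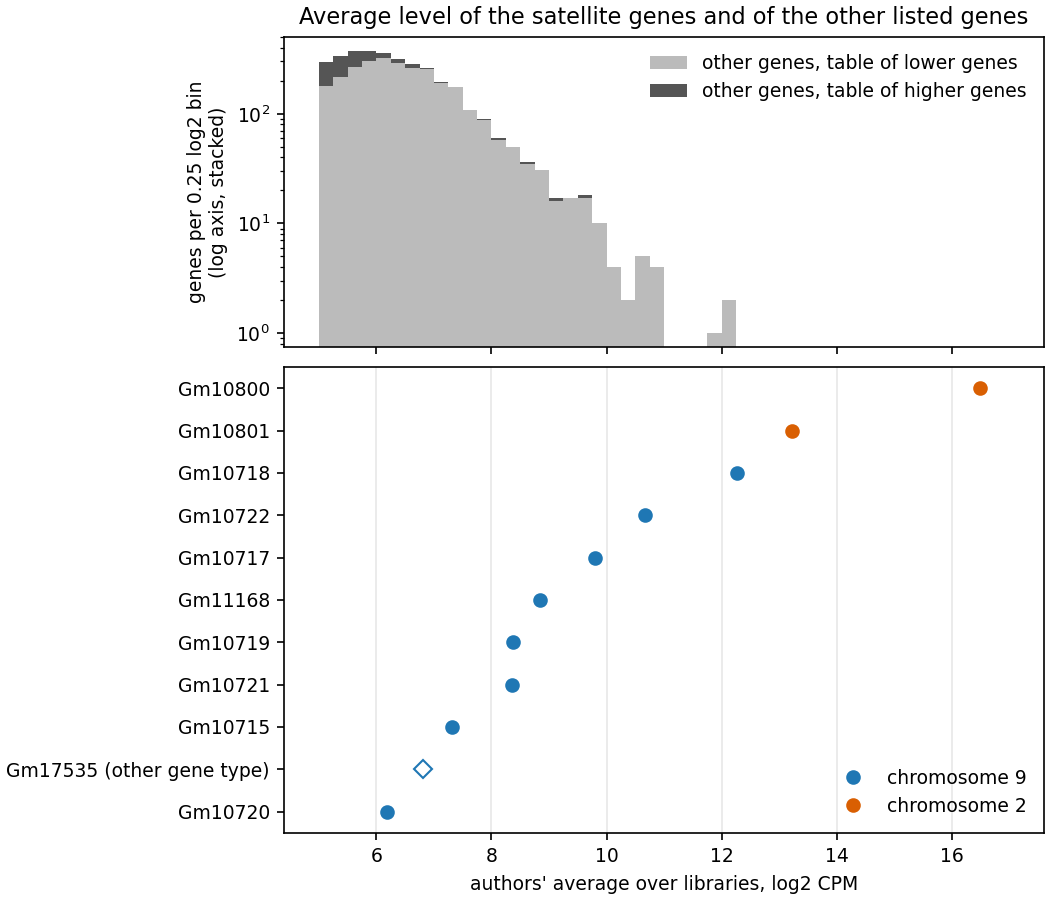
Upper panel, number of other listed genes (y axis, log scale) by the authors' average level (x axis, log2 CPM), stacked by table. Lower panel, the same level for each satellite gene (filled circles, orange for chromosome 2 and blue for chromosome 9) and for *Gm17535* (open diamond). *Gm10800* at 16.49, *Gm10801* at 13.22 and *Gm10718* at 12.26 lie to the right of every other listed gene.

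Summed, the 10 genes amounted to 110595 CPM, or 11.1% of the total to which CPM add up over all genes, on the authors' normalized scale. The chromosome 2 pair made up 101814 CPM of it and the chromosome 9 genes 8781 CPM, a ratio of 11.6. This ratio rested on *Gm10800*, which alone held 83.4% of the sum, and without it the chromosome 2 to chromosome 9 ratio was 1.09. On chromosome 9, *Gm10718* held 55.9% of the sum of the locus, which was 3873 CPM without it. The 10 genes made up 21.1% of the summed average level of all listed genes and 78.4% of that of the table of higher genes. Without *Gm10800*, the share of the summed level of all listed genes was 4.24%.

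Per kb of exonic length, the order changed below the leading genes. *Gm10800* had 139786 CPM per kb, 7.37-fold that of *Gm10801* (18958 CPM per kb), and *Gm10718* had 7207. *Gm10722* followed with 2507 CPM per kb and *Gm10721* with 489. The other 5 genes lay between 109 (*Gm10720*) and 244 (*Gm11168*) CPM per kb, and among them *Gm10717* had 231. Taken per kb over each locus, the chromosome 2 pair had 87469 CPM and the chromosome 9 genes 787, a ratio of 111. Without *Gm10800*, the chromosome 2 value is that of *Gm10801*, 18958 CPM per kb. This ratio was not computed with other lengths. All 10 genes were above the median of the 3436 listed genes with a known length. The median of the 10 was 366 CPM per kb, against 13.7 for all other listed genes, whose lengths include untranslated exons. The highest of the others was *mt-Co1* with 2905 CPM per kb, below *Gm10718* and above *Gm10722*. Because *Gm10717*, *Gm11168*, *Gm10719* and *Gm10715* have several annotated transcripts, their values depended on the length used. With the longest transcript in place of all exons, *Gm10717* had 1302 CPM per kb, *Gm11168* 675, *Gm10719* 486 and *Gm10715* 233. *Gm10717* and *Gm11168* then stood above *Gm10721* (489).

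The level was then set against properties of the genes. The rank correlation (Spearman) between average log2 CPM and exonic length was -0.40 over the 10 genes and 0.10 over the 8 of chromosome 9. With GC content, which varied only from 34.3% to 36.0%, it was 0.24 over the 10 genes and 0.40 over the 8 of chromosome 9. With the share of exonic bases in words of the unit it was 0.02 and 0.10. With the level per kb in place of the level, the chromosome 9 values were -0.25 for exonic length, 0.64 for GC content and 0.48 for words of the unit. These are descriptions over genes that share near-identical sequence and libraries.

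How far one gene can be told from another within the assembly was measured with 100-base windows that start in an exon. Copies of the repeat that are not assembled were not counted, so a window found once can have further copies in the genome. Over all 10 genes, 35.0% of such windows occurred exactly once in the 66 sequences of the primary assembly, on both strands. The loci stood apart in this respect. On chromosome 2, 97.7% of the windows of *Gm10800* and 99.0% of those of *Gm10801* occurred once. Of the windows of these genes, 0% were found in another of the 10 genes. Here and below, a window counts as found in another satellite gene only if it equals a window that starts in an exon there. On chromosome 9, 28.4% occurred once.

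Within the cluster, *Gm10722*, the first gene of the row, had 75.9% of its windows found once. Its share found in another satellite gene was the smallest of the cluster. At the other extreme, *Gm10721* had 0 of 669 windows found once, and 77.1% of them were in another satellite gene. *Gm10720* had 10.8% found once and 89.2% in another satellite gene. *Gm10719* had 16.4% and *Gm10718* 19.2% found once. *Gm10715* (27.4%), *Gm11168* (30.8%) and *Gm10717* (34.7%) lay between. A single window occurred at most 16 times, in *Gm10718*.

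**Figure D4:**
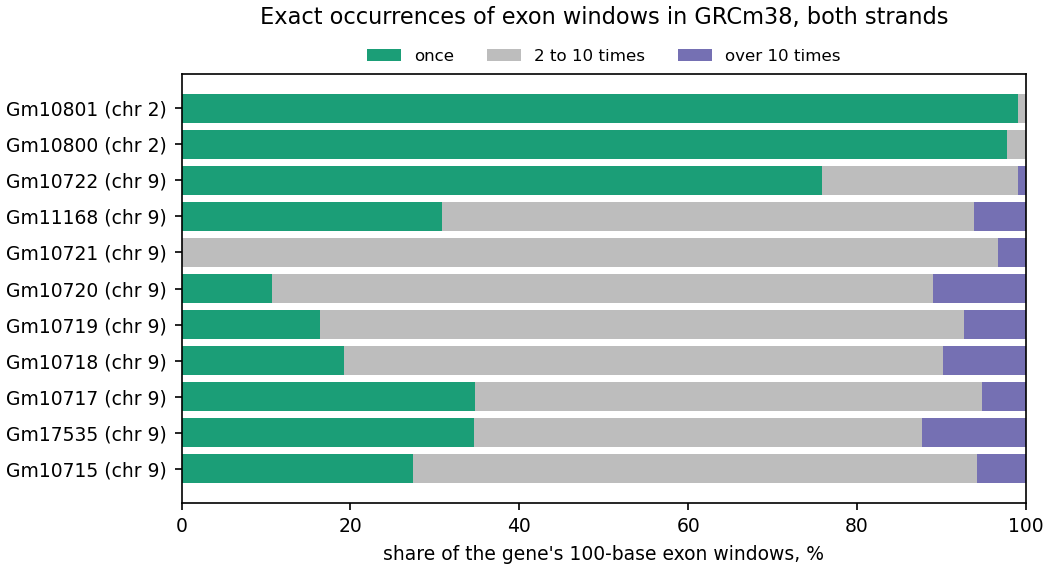
Share of each gene's 100-base exon windows (x axis, percent) that occur once, 2 to 10 times or over 10 times in GRCm38, with genes in the order of their position. The chromosome 2 genes are almost wholly made of windows found once (97.7% and 99.0%), while *Gm10721* has 0.

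The windows that could be told apart depended on their length. At 50 bases, 59.2% of the windows of *Gm10800* and 80.4% of those of *Gm10801* occurred once, and 32.6% and 15.5% were found in another satellite gene. The chromosome 9 genes then had 12.1% found once. At 150 bases, all windows of *Gm10800* (100%) and 99.0% of those of *Gm10801* were found once, against 43.2% on chromosome 9.

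Over the 10 genes, the average log2 CPM had a rank correlation of 0.78 with the share of 100-base windows found once and of -0.78 with the share found in another satellite gene. Over the 8 chromosome 9 genes these values were 0.60 and -0.57. Several chromosome 9 genes did not follow the order. *Gm10718* had the third highest level and 19.2% of windows found once. *Gm10715* had a log2 CPM of 7.31 and 27.4% found once, while *Gm10721* had 8.35 and 0%. With the level per kb in place of the level, the correlation with the share found once was 0.61 over the 10 genes and 0.26 over those of chromosome 9. How reads with several equally good positions were counted is not stated, and its part in these levels was not tested.

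**Figure D5:**
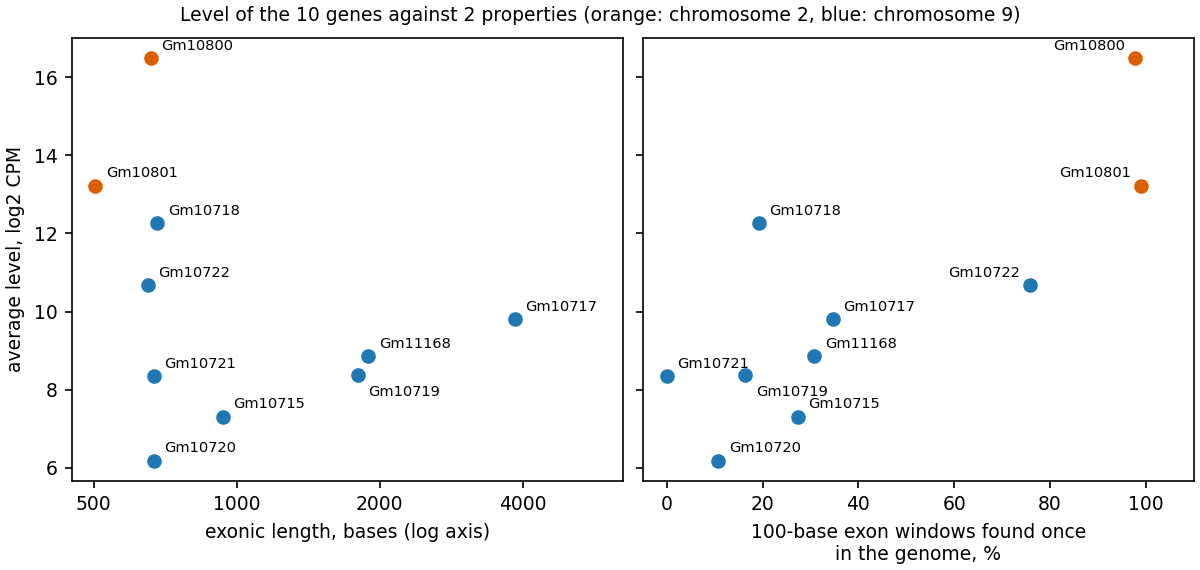
Authors' average level (y axis, log2 CPM) of each of the 10 satellite genes against exonic length (left, log axis) and against the share of 100-base exon windows found once in the genome (right, percent). The points scatter against length (rank correlation -0.40) and rise with the share found once (0.78), with *Gm10718* above the others of its share.

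The unit was also looked for beyond the 10 genes. Of 141767 annotated transcripts, those of 13 genes had at least 50% of their bases in 12-base words of the unit, and the 10 satellite genes were among them. The others were *Gm17535*, *Gm26870* and *Gm21738*. *Gm17535* (chr9:3034599-3035805) lies between *Gm10717* and *Gm10715* and is typed as protein coding in the tables. Its copy of the unit was 98.7% identical to that of *Gm10717*, and 34.7% of its windows occurred once. It stood in the table of higher genes at a log2 CPM of 6.80 (112 CPM, 166 CPM per kb), between *Gm10715* and *Gm10720*. *Gm21738*, a gene of 681 bases on chromosome 14 with 81.1% of its bases in such words, was not listed. In the assembly, 38 bins of 1 kb in the chromosome 9 cluster were covered to at least 50% by words of the unit, against 0 at the chromosome 2 pair, 4 on chromosome 14 and 48 in unplaced sequences. The shorter repeat blocks of chromosome 2 did not reach that cover in any of these fixed bins, so the count misses the locus of the genes with the highest levels.

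Neighbouring genes without the repeat gave no listed gene, where 3436 of all 55450 annotated genes were listed. Within 100 kb, GENCODE annotates the pseudogene *Gm13806* on chromosome 2, and *Mir101c*, *4930433N12Rik* and *Gm32390* on chromosome 9, and none of these 4 was in either table. A gene can be absent from the tables because of a low level or because its difference did not pass, and the tables do not separate these.

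Factors that act on pericentromeric heterochromatin were looked up as a list of 26 genes. Of these, 15 stood in the table of lower genes, 1 in that of higher genes and 10 in neither. Over all protein-coding genes of the annotation, 13.2% stood in the table of lower genes and 2.31% in that of higher genes. That count runs over 21951 genes of any level, also those too low to be listed. Of all listed genes, 84.5% stood in the table of lower genes. The listed members included *Atrx*, a chromatin remodeler that deposits histone H3.3 at heterochromatin (log2 CPM 8.42). *Dnmt1*, the maintenance DNA methyltransferase, was at 7.31, and its partner *Uhrf1* at 5.94. The HP1 genes *Cbx5* (6.61), *Cbx3* (6.39) and *Cbx1* (5.52) were all in the table of lower genes. *Lbr*, the lamin B receptor that tethers heterochromatin to the nuclear envelope, was at 6.77 and *Lmnb1*, lamin B1, at 7.14. *Tet1*, a 5-methylcytosine dioxygenase, was the single gene in the table of higher genes (5.65), whereas *Tet2* (6.90) and *Tet3* (7.30) were in that of lower genes. The histone H3 lysine 9 methyltransferases *Suv39h1*, *Suv39h2* and *Setdb1* were not listed.

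Markers of cell types were looked up in the same tables. The tables leave out any gene whose level did not differ between the populations or was low, so a marker that is not listed says nothing of whether other cells were present, and the purity of the sort could not be checked. All 13 ILC2 markers, among them *Gata3*, *Il1rl1* and *Il7r*, were listed, with a log2 CPM from 6.27 to 9.98, and all stood in the table of lower genes, as did 84.5% of all listed genes. Of 7 T cell markers, *Cd3g* was listed (6.12, table of lower genes), and of 17 markers of NK cells, B cells, myeloid cells, epithelium, mast cells and basophils 0 were listed, beside the 13.2% of all protein-coding genes in the table of lower genes. The highest ILC2 marker was *Il1rl1*, which encodes the IL-33 receptor ST2, at 1007 CPM.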

How the data were processed

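RNA-seq of tdTomato- and tdTomato+ lung ILC2s (4 libraries of each by the labels) was used, and the ATAC-seq libraries were not analysed here. The authors made libraries with a stranded SMART kit, aligned paired-end reads with STAR to GRCm39 (the submitters' processing notes name mm10), assigned reads to the genes of Ensembl release 104 with featureCounts and tested the populations with edgeR. Versions, the use of strand in counting and the counting of reads with several positions are not given in the sources used here. The deposited tables are limited to an FDR below 0.05 and a mean log2 CPM above 5. They hold no TPM and, with 0 such columns left unused, nothing per library, so depth is unknown, no interval or floor is given and the planned test could not be run. The authors' log2 fold change, likelihood ratio, p-value and FDR columns are their own comparison and were not used. The deposited average log2 CPM was turned into CPM as a power of 2, and sums of it only approximate summed CPM.

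The satellite genes are the rows typed as major satellite repeat. These genes and all lists were chosen with earlier results of these data known. Named beside them were *Gm17535*, the 3 other genes next below the highest member and the 3 nearest to the median member by level, annotated genes within 100 kb, the listed markers and factors, and *Gm21738*, found by the search. All 10 matched GENCODE M21, and 0 were among RefSeq's promoters. Sequences and coordinates are from RefSeq's GRCm38. The unit is the most frequent base at each position over 10 consecutive copies. Alignments used BLAST+ 2.17.0, windows were counted exactly, and scripts (Python 3.11.15, numpy 2.4.6, pandas 2.3.3, scipy 1.17.1, numba 0.67.0) were tested on simulated sequences. Alternatives were other members, lengths, windows and words.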

Additional observations from a re-analysis of the deposited data

How the results depend on the processing

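No paired analysis was possible because no value per library is given. For the same reason the pseudocount, the filter on low values, leaving out each replicate and the replicate block were not run. With *Gm17535*, the chromosome 9 sum was 8893 CPM and the ratio of the chromosome 2 to the chromosome 9 sum 11.4. Without its highest gene, *Gm10718*, the chromosome 9 sum was 3873 CPM. Without *Gm10800*, the chromosome 2 sum was 9555 CPM, the ratio 1.09 and the share of the summed level of listed genes 4.24%. Per kb the ratio was 111, and against the table of higher genes alone the share was 78.4%. The rank correlation of level with exonic length was -0.36 with the longest transcript, -0.23 without *Gm10800* and -0.31 with *Gm17535*. The share of all windows found in another satellite gene was 39.1% at 100 bases, 65.0% at 50 and 24.6% at 150, and the same on 1 strand only. The share of all exons in words of the unit was 88.4% with 12-base words, 91.1% with 10, 83.7% with 15 and 76.98% with 20. With the longest transcript the median level per kb rose from 366 to 988 CPM, through the 4 genes with several transcripts. Against the table of higher genes alone, the median percentile by level was 99.0 in place of 98.0. The correlation with length was below 0 in its 3 alternatives but 0.10 over the chromosome 9 genes alone. The other rank correlations were not run with these 3 alternatives. Annotation and genome differ from the authors' build, which was not tested.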
